A study of Mus musculus with 7 samples.

Results

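The beta crystallins are a family of structural proteins of the eye lens, and 6 genes of it, Cryba1, Cryba2, Cryba4, Crybb1, Crybb2 and Crybb3, were followed in the lens epithelium of mice without SPARC and of wild-type mice. Members were taken by gene symbol: every probe set whose platform annotation gave exactly 1 symbol, and that symbol one of the 6. This found 6 probe sets of 45037, 1 for each of the 6 genes out of 18193 genes named in this way, and 0 further probe sets listed a member beside other genes. The KO group was SPARC-null and the WT group wild-type, both on a C57Bl/6 background, from 1 litter, aged 28 days, normally housed and given no treatment. Tissue was cut by laser capture from cresyl violet stained cryosections, and RNA of single lenses, amplified in 2 cycles, was hybridised to Affymetrix mouse arrays, 1 per lens. The KO group had 4 lenses from 3 animals (1L and 1R of animal 1, 4L and 7L), and the WT group had 3 lenses from 3 animals (2L, 5L and 6L). Animal 7 was a male and all other animals were females, per the labels. The means of 1L and 1R stand for animal 1, so n = 3 animals in each group. The p-values rest on the spread between animals of 1 litter, which limma moderates with that of other probe sets.

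Crystallins fill the cytoplasm of lens cells and give the lens its transparency and refractive power. Beta crystallins share with gamma crystallins a fold of Greek key motifs, and unlike the gamma crystallins they assemble into dimers and larger oligomers. The acidic members, whose names carry an A, have an extension at the amino end, while the basic members, whose names carry a B, have extensions at both ends. They are made above all in the elongating fibre cells that differentiate from the epithelium, and several of them are cataract genes in people. Large Maf proteins, Pax6, Prox1 and Sox proteins are known regulators of crystallin promoters.

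The genes lie on 3 chromosomes, with Cryba1 on chromosome 11, Cryba2 on chromosome 1, and the other 4 on chromosome 5. In the RefSeq gene table, 0 protein-coding genes separate Cryba4 from Crybb1 and 0 separate Crybb2 from Crybb3. All 6 had a promoter entry in RefSeq, and these promoters are shown because the 6 transcripts were all near the top of every array. Each stretch runs from 160 bases before the annotated gene start to 10 bases into the gene (170 bases, build GRCm38.p6), 5′ to 3′ on the strand of the gene. One set of capitals marks TGCTGA, the core of a Maf recognition half-site, on either strand. Read on the opposite strand it appears as TCAGCA. The other set of capitals marks a TATA box core, TATAA, on either strand. It appears as TTATA where it lies on the opposite strand.
Cryba1, chr11:77725284-77725453, minus strand: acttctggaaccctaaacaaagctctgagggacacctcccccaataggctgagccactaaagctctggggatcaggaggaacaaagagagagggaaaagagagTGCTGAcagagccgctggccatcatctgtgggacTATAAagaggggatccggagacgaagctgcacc
Cryba2, chr1:74893134-74893303, minus strand: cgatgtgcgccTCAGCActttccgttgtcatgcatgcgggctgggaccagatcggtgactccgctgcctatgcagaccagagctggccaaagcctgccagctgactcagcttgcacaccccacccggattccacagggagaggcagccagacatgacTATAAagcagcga
Cryba4, chr5:112252509-112252678, minus strand: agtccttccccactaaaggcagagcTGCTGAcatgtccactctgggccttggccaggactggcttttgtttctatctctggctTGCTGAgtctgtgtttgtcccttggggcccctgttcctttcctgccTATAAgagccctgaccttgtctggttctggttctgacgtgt
Crybb1, chr5:112255660-112255829, plus strand: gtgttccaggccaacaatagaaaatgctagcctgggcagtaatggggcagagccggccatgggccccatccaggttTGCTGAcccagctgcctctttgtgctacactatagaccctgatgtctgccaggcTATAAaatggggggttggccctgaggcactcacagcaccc
Crybb2, chr5:113070108-113070277, minus strand: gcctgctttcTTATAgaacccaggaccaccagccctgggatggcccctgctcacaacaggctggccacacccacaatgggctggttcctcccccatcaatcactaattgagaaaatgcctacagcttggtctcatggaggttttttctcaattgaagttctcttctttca
Crybb3, chr5:113081575-113081744, minus strand: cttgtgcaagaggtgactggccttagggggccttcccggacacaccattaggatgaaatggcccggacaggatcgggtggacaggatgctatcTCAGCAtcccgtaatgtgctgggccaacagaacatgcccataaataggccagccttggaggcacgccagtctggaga

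Over the whole window of 300 bases, from 250 before to 50 after the start, TGCTGA was found on either strand in 5 of the 6 promoters, all but Crybb2. It was present in 19.5% of all 32851 promoter windows of that length. Cryba4 held it at 3 places, at positions -182, -135 and -77 from the gene start, of which the first lies outside the stretch printed. In Cryba1 it began at -57 and in Crybb1 at -84, and on the opposite strand it was at -149 in Cryba2 and -67 in Crybb3. TATAA was found in 5 of the 6 promoters, all but Crybb3, and in 24.9% of all windows. It began at -31 in Cryba4, -30 in Crybb1, -23 in Cryba1 and -3 in Cryba2, and in Crybb2 it was on the opposite strand at -150. The 2 motifs do not overlap in any of the 6 windows. A match is a stretch of letters and was not tested as a binding site.

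All 6 transcripts were among the strongest signals of every lens. Of 45037 probe sets, the 6 ranked between 4 and 77 from the top in the KO lenses and between 1 and 128 in the WT lenses, and all were among the 100 brightest by mean level. Together they made up 0.527% to 0.659% of the summed signal of a KO array and 0.370% to 0.632% of that of a WT array. Each member reached 56.6% to 97.3% of the highest signal of its array in KO lenses and 58.4% to 100% in WT lenses. Levels of different probe sets are not set against each other, since each binds its target with its own strength.

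The labels and arrays were checked first. The brightest Sparc probe set had deposited signals of 8.14 to 70.5 in the KO group and of 27371 to 49972 in the WT group, and it ranked 3 or 4 from the top in the WT lenses. The WT lens 2L stood apart. Its highest signal was 28328, against 42153 to 53056 in the other 6 lenses. The geometric mean of its 18 hybridisation controls, bacterial and phage transcripts added to every array and not taken from the lens, was 3997, against 5883 to 8109. Its ratio of 3' to 5' Gapdh signal, which is lower where RNA is more intact, was 3.75, against 9.06 to 15.9. A separate set of 27 bacterial control probe sets, not among the 18 hybridisation controls, had a highest signal of 45.5. Of the markers of the labelled tissue, lens epithelium, Foxe3 was under this highest bacterial control in some lenses. Its deposited signals were 11.5 to 84.1 across KO lenses and 40.2 to 118 across WT lenses. The other 6 of 7 were above this control in every lens. So were all 10 measured lens fibre genes, which are markers of fibre cells and not of the labelled tissue. All 9 measured rod photoreceptor genes were as well, with a summed signal of 49798 to 76298 across KO lenses and of 42581 to 81945 across WT lenses. Their part in the level of the beta crystallins was not tested, although retina is known to express some of these genes. The share of fibre cells in the captured tissue was not measured.

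No beta crystallin passed the test between KO and WT lens epithelium. Of the 6, 5 had higher and 1 had lower values in KO. The median of their log2 differences was 0.08, against -0.01 over all probe sets. None of the 6 was below an adjusted p of 0.05 in limma and 0 were below an unadjusted p of 0.05, where 0.00666% and 4.06% of all probe sets were. KO and WT lenses overlapped at all 6, and did not overlap at 5.33% of all probe sets. The levels below are log2(signal + 16) after quantile normalization, which gives every array the same distribution by rank, and each difference is KO minus WT.

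**Figure D1:**
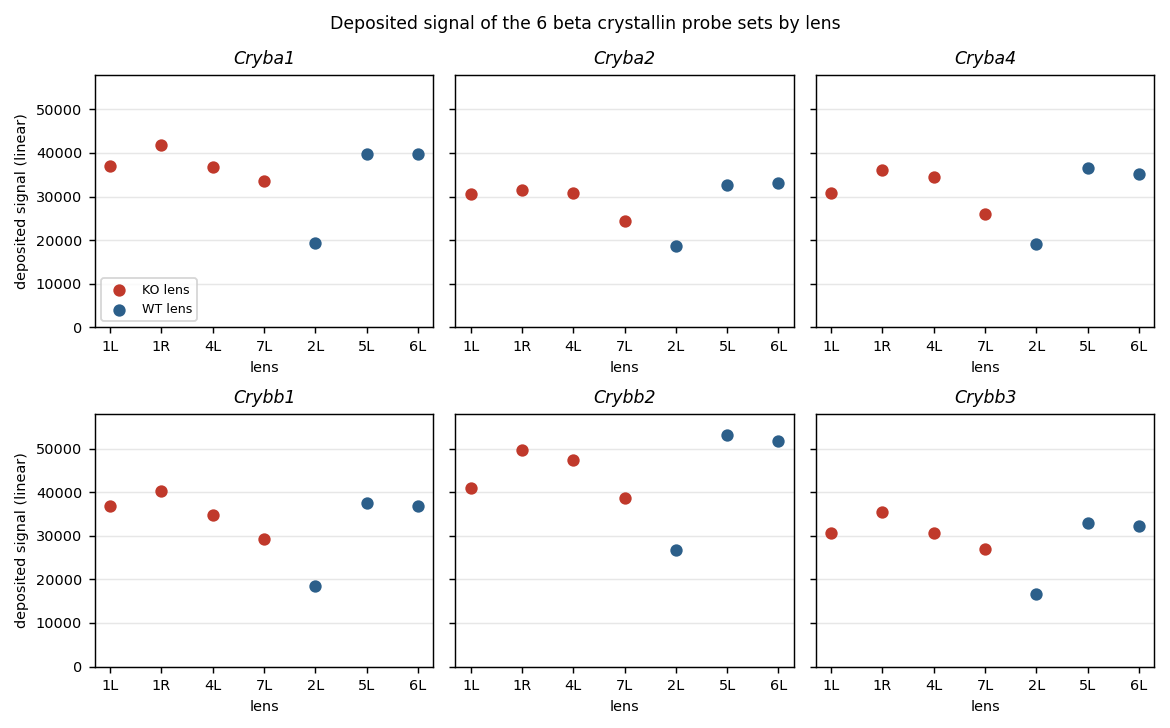
Deposited linear signal (vertical axis) of each beta crystallin probe set in each lens (horizontal axis), with KO lenses in red on the left and WT lenses in blue on the right, 1 point per lens. Lens 2L is the lowest of the 7 in all 6 panels, at 16537 to 26654, and the other WT lenses lie among or above the KO lenses.

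Among the acidic members, Cryba1 encodes the betaA3 and betaA1 polypeptides from alternative start codons of 1 transcript. Its deposited signals were 36966 (1L), 41795 (1R), 36675 (4L) and 33604 (7L) in KO lenses, against 19413 (2L), 39867 (5L) and 39863 (6L) in WT lenses. WT lenses 5L and 6L lay inside the KO range and 2L lay below all other lenses. After normalization Cryba1 averaged 15.14 ± 0.08 for KO animals against 14.99 ± 0.14 for WT animals (SD, n = 3), a difference of 0.15 (SE 0.18, 95% interval -0.25 to 0.55, limma adjusted p = 0.99988). Normalized, 3 of the 4 KO lenses lay above all WT lenses and 4L (15.05) lay below 5L (15.07).

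Cryba2 encodes betaA2, an acidic subunit. Its signals were 30683 (1L), 31483 (1R), 30735 (4L) and 24448 (7L) in KO lenses and 18536 (2L), 32657 (5L) and 33034 (6L) in WT lenses. Here 5L and 6L were above every KO lens and 2L was below every one. Normalized, Cryba2 averaged 14.78 ± 0.06 for KO animals against 14.78 ± 0.05 for WT animals, a difference of 0.01 (SE 0.17, 95% interval -0.37 to 0.38), the smallest in size of the 6.

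Cryba4 encodes betaA4, which is known to pair with the basic betaB1 subunit. Signals were 30881 (1L), 36149 (1R), 34458 (4L) and 25891 (7L) in KO lenses and 19043 (2L), 36527 (5L) and 35191 (6L) in WT lenses. The KO lenses lay between 2L and 5L. The normalized levels of 14.89 ± 0.04 in KO animals against 14.87 ± 0.09 in WT animals differed by 0.02 (SE 0.17, 95% interval -0.36 to 0.40).

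Among the basic members, Crybb1, whose gene lies next to Cryba4, had signals of 36865 (1L), 40290 (1R), 34871 (4L) and 29241 (7L) in KO lenses. In WT lenses they were 18376 (2L), 37432 (5L) and 36823 (6L). The lenses of KO animal 1 were near or above 5L and 6L, and 4L and 7L were below them. Normalized, it averaged 15.03 ± 0.09 for KO animals against 14.89 ± 0.15 for WT animals, a difference of 0.14 (SE 0.18, 95% interval -0.26 to 0.54).

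Crybb2 encodes betaB2, a major soluble protein of the mature lens and the gene mutated in the cataract of the Philly mouse. Its signals were 41032 (1L), 49650 (1R), 47518 (4L) and 38717 (7L) in KO lenses, against 26654 (2L), 53054 (5L) and 51879 (6L) in WT lenses. It was the brightest of all probe sets in 5L and the next brightest in 6L, ranked 5 in 2L, and ranked 4 in all 4 KO lenses. Because quantile normalization sets a value by its rank, all KO lenses received the same level, 15.37, and the SD of 0 there is a product of the method. In WT animals Crybb2 was at 15.42 ± 0.06 (SD, n = 3), and the difference was -0.05 (SE 0.17, 95% interval -0.43 to 0.33).

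Crybb3 encodes betaB3, a basic subunit whose gene lies next to Crybb2. It gave 30554 (1L), 35386 (1R), 30760 (4L) and 27084 (7L) in KO lenses and 16537 (2L), 33048 (5L) and 32358 (6L) in WT lenses. It was the member that ranked lowest in any array, at 128 in 2L. Its normalized level was 14.83 ± 0.09 in KO animals against 14.70 ± 0.17 in WT animals, a difference of 0.13 (SE 0.18, 95% interval -0.27 to 0.54).

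**Figure D2:**
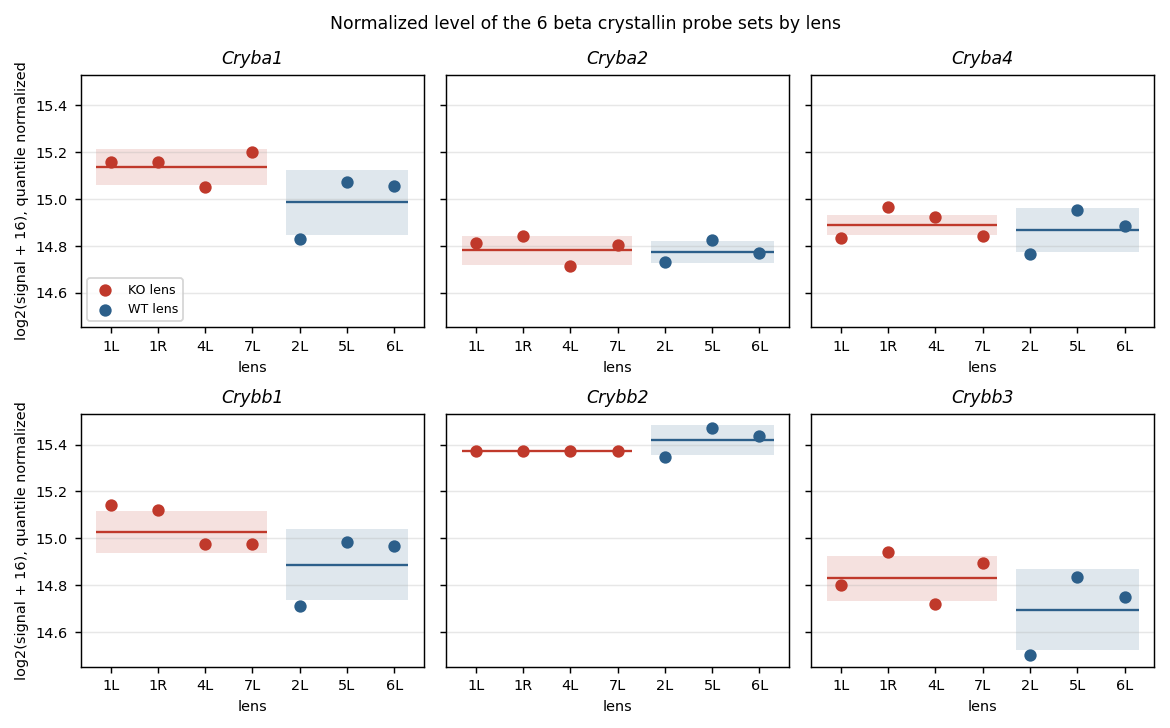
Quantile-normalized log2(signal + 16) (vertical axis) of each beta crystallin in each lens (horizontal axis). Points are lenses, KO in red on the left and WT in blue on the right, lines are means over 3 animals and bands are ± 1 SD over animals. KO and WT lenses overlap in every panel, and the 4 KO lenses of Crybb2 share 1 value, 15.37.

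The limma adjusted p was 0.99988 for each of the 6, and their unadjusted p ran from 0.418 for Cryba1 to 0.975 for Cryba2. As folds, the 95% intervals ran from 0.74 to 1.26 for Crybb2 and from 0.84 to 1.46 for Cryba1, on the scale of the normalized signal. They do not show that the levels were alike, and whether signals this near the top of an array understate a change was not tested. In bulk samples, fewer cells of a type and less RNA per cell cannot be told apart. The exact permutation test over the 6 animals gave two-sided p from 0.3 to 0.9, where 3 animals against 3 cannot go below 0.1.

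The size of these differences depended on lens 2L. In the deposited signals it was the lowest of the 7 lenses for 6 of 6 members, at 0.499 to 0.596 times the median of the other lenses. Its hybridisation controls were at 0.583 times that median, and its highest signal at 0.544 times. After normalization 2L was still the lowest lens for 5 of the 6, all but Cryba2. Without WT animal 2 the difference was 0.07 for Cryba1, 0.05 for Crybb1, 0.04 for Crybb3, -0.02 for Cryba2, -0.03 for Cryba4 and -0.09 for Crybb2. Array brightness, RNA integrity and the crystallin level of that lens cannot be told apart here.

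The scale also set the sign. Divided by the hybridisation controls of each array, a scaling added after the data were seen, all 6 members had lower values in KO, from -0.18 for Crybb2 to -0.02 for Cryba1. On that scale the median of all probe sets was itself at -0.21, and relative to it the members were higher by 0.02 (Crybb2) to 0.18 (Cryba1). As deposited, all 6 had higher values in KO, from 0.06 for Crybb2 to 0.22 for Cryba1. Dividing by the controls shifts all probe sets of an array alike, so the order of the members is the same on both of these scales.

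**Figure D3:**
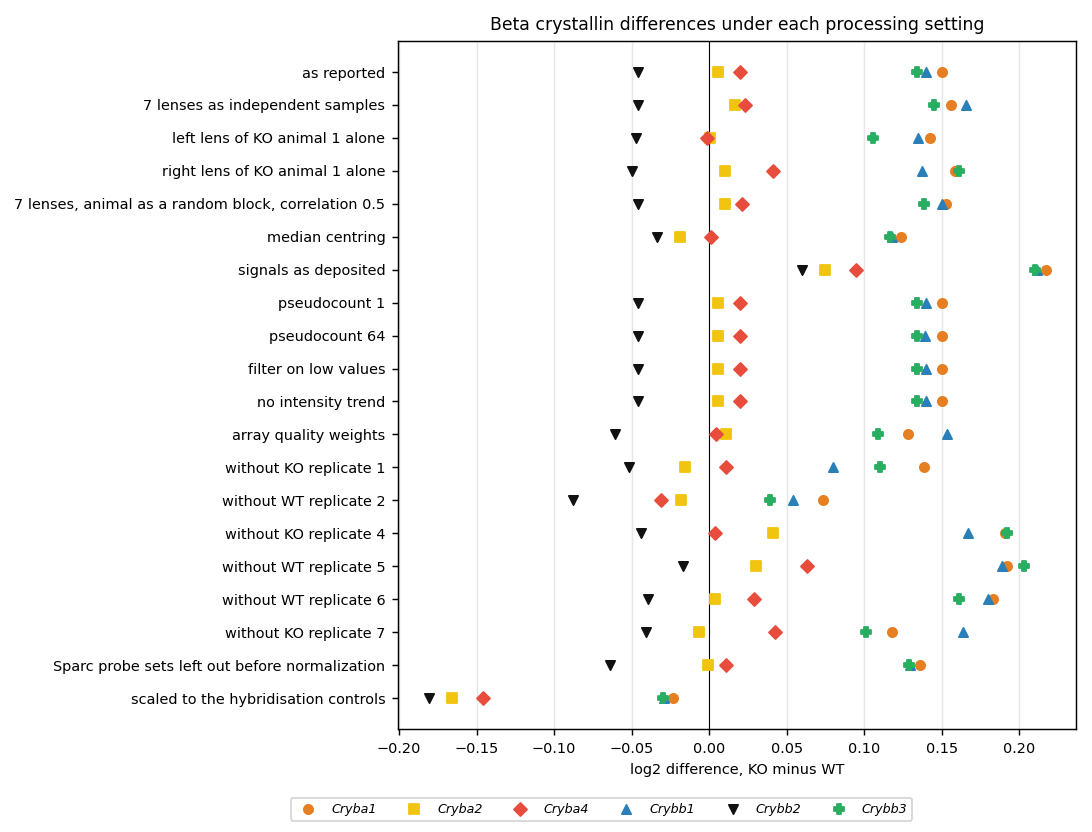
Log2 difference, KO minus WT (horizontal axis), of each beta crystallin under the reported setting and 19 alternatives (vertical axis), 1 marker per gene. Leaving out WT animal 2 and scaling to the hybridisation controls move the members to the left, and the signals as deposited move them to the right.

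The left and right lens of KO animal 1 show how far lenses of 1 animal differed at the members. The deposited signal of 1R over that of 1L was 1.03 for Cryba2, 1.09 for Crybb1, 1.13 for Cryba1, 1.16 for Crybb3, 1.17 for Cryba4 and 1.21 for Crybb2. The right lens was thus brighter for all 6, on an array whose hybridisation controls were brighter too (8109 in 1R and 5883 in 1L). Normalized, 1R exceeded 1L by 0.14 for Crybb3 and by 0.13 for Cryba4, as much as or more than the KO to WT differences of these genes. At the other 4 members 1R minus 1L was -0.02 to 0.03. Some lens fibre genes differed more between these lenses, with deposited signals of 4371 (1L) and 13477 (1R) at Bfsp1 and of 319 (1L) and 1981 (1R) at Birc7. Mip (24386 in 1L, 22872 in 1R) and Grifin (32225 in 1L, 27338 in 1R) went the other way.

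The members were compared with each other through the log2 ratio of a pair within each lens, in which the brightness of the array cancels in part. Of 15 pairs, KO and WT lenses did not overlap in 3, Cryba1 over Cryba2, Cryba1 over Crybb2 and Crybb1 over Crybb2. Among the 4950 pairs of the 100 brightest probe sets, 4.04% did not overlap, but the 15 pairs share members and are not independent. The log2 ratio of Cryba1 to Crybb2 was -0.24 ± 0.08 in KO animals against -0.43 ± 0.08 in WT animals (SD, n = 3), and that of Crybb1 to Crybb2 was -0.34 ± 0.09 in KO animals against -0.53 ± 0.09 in WT animals. For Cryba1 over Cryba2 it was 0.36 ± 0.04 in KO animals against 0.21 ± 0.10 in WT animals. The exact permutation test gave p = 0.1 for each of these 3, the smallest possible, and 0.333 after Benjamini-Hochberg adjustment over the 15 pairs. With 3 animals against 3 no pair could pass 0.05 in this test, so it cannot decide whether the ratios differ. From the deposited signals, without normalization, Cryba1 over Cryba2 overlapped and Crybb2 over Crybb3 did not. Both pairs of Crybb2 with Cryba1 and Crybb1 again did not overlap. Normalized Crybb2 had the same value in all KO lenses, so the KO spread of its normalized ratios is that of the other gene alone.

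The spread of the members was that of bright probe sets. Their median SD within a group was 0.09 on the log2 scale, as for the 100 brightest probe sets (0.09), against 0.40 over all probe sets. Their median difference in size, regardless of sign, was 0.09, against 0.06 for the 100 brightest and 0.22 for all. The median difference of the 100 brightest was 0.02 with 59 of 100 higher in KO, and 0 of them passed the test.

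Other crystallins gave differences of the same order. Of the alpha crystallins, small heat shock proteins that keep other lens proteins soluble, both had higher values in KO and 0 of 2 passed. Cryaa averaged 14.97 ± 0.07 for KO against 14.87 ± 0.11 for WT animals, and Cryab averaged 15.40 ± 0.07 for KO against 15.35 ± 0.09 for WT animals. Of 8 gamma crystallins listed, 6 had a probe set of their own, 4 with higher and 2 with lower values in KO and a median difference of 0.06, and 0 passed. Crygn, which has features of both the beta and the gamma families, averaged 13.53 ± 0.53 for KO animals against 13.80 ± 0.24 for WT animals (SD, n = 3), a difference of -0.27 (SE 0.27). Crygs, the gamma crystallin of the mature lens, differed by 0.06 and Crygb by -0.05. The 3 relatives that share the beta-gamma fold outside the lens crystallins, Crybg1, Crybg2 and Crybg3, differed by -0.41, 0.25 and -0.45, and 0 passed.

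Genes of fibre cells, where beta crystallins accumulate, lay on the other side of 0. Of 14 fibre genes listed, 10 were measured with a probe set of their own, and 10 of 10 had lower values in KO. Their median difference was -0.20, against 0.08 for the 6 beta crystallins. Lens 2L, the lowest for 5 of the 6 beta crystallins after normalization, was the highest for Mip (14.73), Lim2 (14.74), Gja3 (14.46) and Tdrd7 (14.32). For Gja3 the other WT lenses, at 13.82 (5L) and 13.95 (6L), lay inside the KO range. Both also did for Lim2, at 14.48 (5L) and 14.28 (6L), and for Tdrd7, at 13.88 (5L) and 13.96 (6L). For Mip 5L (14.59) lay above all KO lenses and 6L (14.06) lay inside their range. At the other fibre genes 2L was not the highest lens. It was still the highest WT lens at Bfsp1 (13.750, against 13.753 in KO lens 1R), Caprin2 (12.96, against 13.01 in 1R) and Grifin (14.922, against 14.925 in KO lens 1L). At Bfsp2 2L (14.49) lay below 6L (14.70), and at Birc7 2L (10.43) lay below 5L (10.57). The count of 10 of 10 and the median of -0.20 include 2L, and how far they rest on it was not tested. Mip, the water channel of fibre membranes, averaged 14.33 ± 0.31 for KO against 14.46 ± 0.35 for WT animals, and Bfsp2, a beaded filament protein, averaged 14.37 ± 0.26 for KO against 14.55 ± 0.13 for WT animals. Grifin, a lens galectin, averaged 14.59 ± 0.19 for KO animals against 14.76 ± 0.15 for WT animals (SD, n = 3). None of the 10 passed over all probe sets, and 1, Dnase2b, the nuclease that clears fibre cell DNA, was below an unadjusted p of 0.05 (difference -0.83, SE 0.17, limma adjusted p = 0.918). Its deposited signals were 1338 (1L), 5671 (1R), 3100 (4L) and 2809 (7L) in KO lenses, against 4835 (2L), 5355 (5L) and 5384 (6L) in WT lenses. The lenses of KO animal 1 lay at both ends, 1L below and 1R above all WT lenses, which their mean does not show. With 1R alone for animal 1 the Dnase2b difference was -0.49 (SE 0.27, unadjusted p = 0.102 in limma), and with 1L alone it was -1.18 (SE 0.30). The difference between the fibre genes and the beta crystallins was not tested. The summed signal of the fibre genes was 121318 to 166409 across KO lenses and 129999 to 162915 across WT lenses. That of the beta crystallins was 178986 to 234754 across KO lenses and 118559 to 232586 across WT lenses.

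Markers of other cell types also leaned to 1 group or the other, and none of them passed over all probe sets in limma. Of the Mueller glia markers, 3 of 3 had higher values in KO, with a median difference of 0.69. All 3 had an unadjusted p under 0.05 in limma, as did 4.06% of all probe sets. Their summed signal was 5421 to 9409 across KO lenses and 3550 to 5966 across WT lenses. All 5 markers of melanocytes and pigment cells had higher values in KO (median 0.78), with a summed signal of 14152 to 42466 across KO lenses and of 7369 to 23331 across WT lenses. Of the macrophage and leukocyte markers 8 of 9 had higher values in KO (median 0.48), with 1566 to 2545 across KO lenses and 755 to 1433 across WT lenses. The 3 red cell markers measured also had higher values in KO (median 1.42), from a summed signal of 64.8 to 348 across KO lenses and of 24.6 to 68.9 across WT lenses. Only 3 of the 9 macrophage and leukocyte markers and 0 of the 3 red cell markers were above the highest bacterial control (45.5) in every lens. In each of these 2 lists 1 marker was at or under it in all lenses. Lower values in KO were seen for 4 of 5 markers of corneal and surface epithelium (median -1.39), with 6886 to 18456 across KO lenses and 10207 to 21906 across WT lenses. The same held for 4 of 5 pigment epithelium markers (median -0.53), with 1808 to 2240 across KO lenses and 1942 to 3682 across WT lenses. For 4 of 5 skeletal muscle markers values were also lower in KO (median -0.28), with 7510 to 29233 across KO lenses and 5065 to 37707 across WT lenses. Of the rods' markers 7 of 9 (median -0.11) and of those of the lens epithelium 5 of 7 (median -0.06) had lower values in KO. An unadjusted p under 0.05 in limma, met by 4.06% of all probe sets, was not confined to Mueller glia. Higher in KO with such a p were 2 red cell, 3 macrophage and leukocyte, 1 melanocyte and pigment cell and 1 pigment epithelium marker. Lower were 2 corneal and surface epithelium, 2 pigment epithelium and 1 macrophage and leukocyte marker. Skeletal muscle, rods and lens epithelium had 0. Rlbp1 stands in both the Mueller glia and the pigment epithelium list. The part of these cells in the values of the fibre genes and the beta crystallins was not tested.

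**Figure D4:**
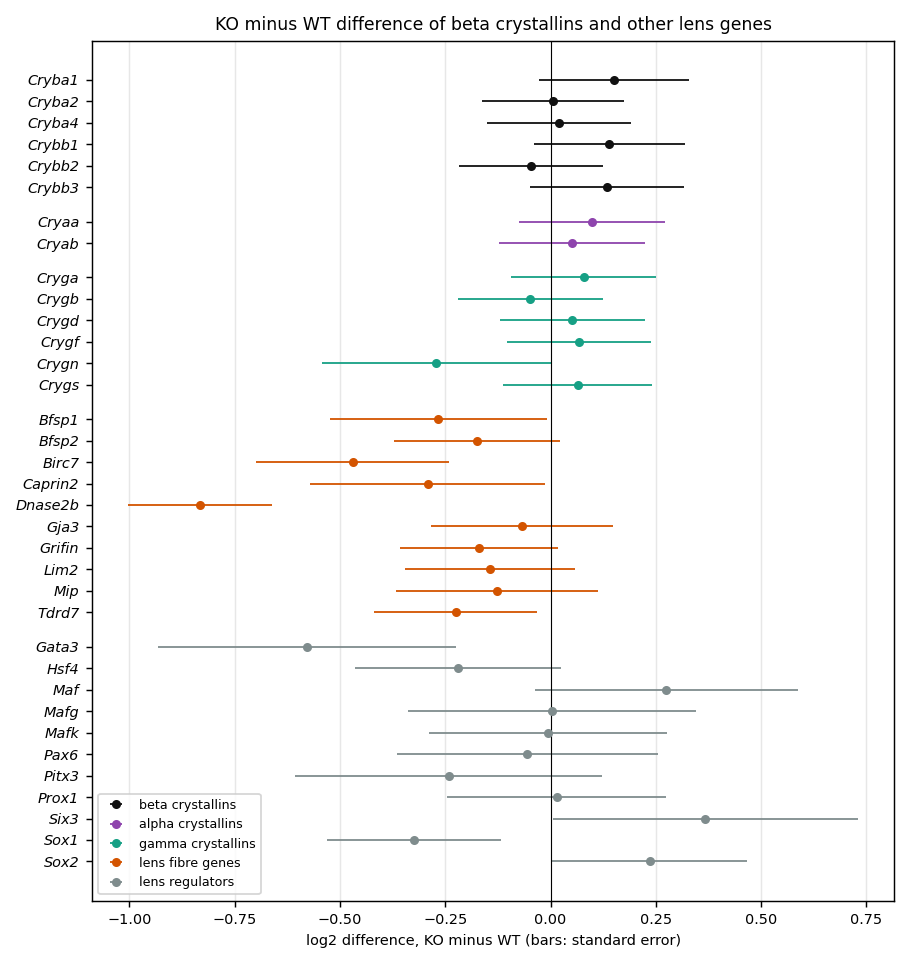
Log2 difference, KO minus WT (horizontal axis), with its standard error (bars), for beta crystallins (black), alpha (purple) and gamma crystallins (green), lens fibre genes (orange) and lens regulators (grey), at the brightest probe set of each gene. The beta crystallins lie between -0.05 and 0.15, and all 10 fibre genes lie below 0.

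Of 12 regulators of lens genes, 11 were measured, 5 with higher and 6 with lower values in KO and a median difference of -0.01, and 0 passed at an adjusted or an unadjusted p of 0.05 in limma. Maf, the large Maf protein needed for fibre crystallin expression, averaged 13.89 ± 0.06 for KO animals against 13.62 ± 0.71 for WT animals (SD, n = 3), with deposited signals of 13236 to 17574 across KO lenses and of 6335 to 19650 across WT lenses. Pax6, a regulator of eye development, averaged 12.44 ± 0.58 for KO against 12.49 ± 0.41 for WT animals. Prox1, which acts in fibre elongation, averaged 9.95 ± 0.40 for KO against 9.93 ± 0.25 for WT animals, and Sox1, which acts on gamma crystallin genes, averaged 11.02 ± 0.26 for KO against 11.34 ± 0.14 for WT animals. The smallest unadjusted p of this list in limma, 0.133, was that of Gata3, a factor of fibre cell differentiation, with a difference of -0.58 (SE 0.35).

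The mean profile of the members over the 6 animals, each gene centred on its own mean, was -0.16 in WT animal 2 and -0.01 to 0.07 in the other 5. The genes with the profile most like it, by Pearson r over 6 animals among 22512 probe sets above the median level, were Ubp1 (r = 0.995), Zfp277 (0.989), Rnmt (0.988), Alkbh4 (0.983) and Cetn4 (0.982). The most opposed were Gpd2 (r = -0.995), Spata2 (-0.989), P2rx6 (-0.988), Gnas (-0.982) and Paip2 (-0.976). With 6 animals, 1 of which stands apart, 130 probe sets had an r over 0.9, so these values describe likeness only. Against the mean of the other 5 members, r was 0.953 for Crybb3, 0.895 for Crybb1, 0.892 for Cryba1, 0.712 for Cryba2, 0.685 for Cryba4 and 0.396 for Crybb2, over points that share the arrays.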

How the data were processed

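The deposited values are linear intensity values, 1 summary signal per probe set, from 1 array per lens, and per the labels' protocols the RNA was amplified in 2 cycles. Their summary software and background correction are unstated: not given in the sources used here. Tested on the table, every array had a trimmed mean near 500.003. Of 45101 probe sets, 64 controls were left out. The rest became log2(signal + 16), quantile normalized, with 1L and 1R averaged. KO was compared with WT over 3 animals each by limma 3.58.1 in R 4.3.3 (intensity trend, two-sided, Benjamini-Hochberg over 45037 probe sets, threshold 0.05). limma moderates each variance with those of other probe sets, and its SE for the members (0.169 to 0.182) exceeds that from their own SD (0.037 to 0.114). Both use the same group sizes, so the gap is that moderation. The limma p-values and intervals of the members thus rest largely on the spread of other probe sets. Symbols came from the platform annotation (34945 probe sets with 1 symbol), and the files name no genome build. Promoter sequences came from RefSeq. The code was tested on simulated data. The members and lists were chosen with earlier results of these data known. Text names all members, Sparc, list genes by smallest p or where their level is described, and the 5 genes most and least like the members' profile. Alternatives covered the unit of replication, normalization, pseudocounts of 1 and 64, filters, variance models, the threshold and each animal in turn. Scaling to the hybridisation controls and leaving Sparc out before normalization were added after the data were seen. The number of arrays limits the precision.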

Additional observations from a re-analysis of the deposited data

Results flagged for a closer look

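Dixon's test was run on the 4 KO lenses for each member on the normalized and the deposited scale. Crybb2 after normalization could not be tested, since its KO values are equal, and of the other 11 tests 1 marked a lens. Chance marks about 1 in 20 where samples are independent, but 1L and 1R are lenses of 1 animal and both scales use the same arrays, so that rate does not hold here. The deposited signal of Cryba2 in KO lens 7L was 24448, against 30683 to 31483 in the other KO lenses. Normalized, 7L was at 14.80 for Cryba2, inside the KO range of 14.71 to 14.84. The array of 7L had hybridisation controls of 6276, within the 5883 to 8109 of the KO arrays, and the lowest median of its 100 brightest probe sets among them (25900). Animal 7 was the male.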

How the results depend on the processing

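No alternative fitted by limma brought any of the 6 beta crystallins past the threshold, and the smallest limma adjusted p was 0.867 (Crybb1). On the scale of the hybridisation controls, the exact permutation test over 6 animals gave p = 0.1 for Cryba2 and Crybb2, both lower in KO. The same exact permutation test gave p = 0.3 to 0.9 for the other members. With 3 animals against 3 it cannot go below 0.1, so that setting could not have passed 0.05. Scaled to the hybridisation controls, the difference turned to -0.023 for Cryba1, -0.17 for Cryba2, -0.15 for Cryba4, -0.029 for Crybb1 and -0.030 for Crybb3 (the median of all probe sets was -0.21). The difference of Cryba2 also turned with median centring (-0.019) and without the Sparc probe sets (-0.00050), that of Cryba4 with the left lens of KO animal 1 alone (-0.0014), and that of Crybb2 with the signals as deposited (0.060). Leaving out each animal in turn, it ran from 0.073 to 0.19 for Cryba1, -0.018 to 0.041 for Cryba2, -0.031 to 0.063 for Cryba4, 0.054 to 0.19 for Crybb1, -0.088 to -0.017 for Crybb2 and 0.039 to 0.20 for Crybb3. Over all probe sets 3 passed, 2 or 3 when an animal was left out, and 0 when the Sparc probe sets were left out before normalization. The brightest Sparc probe set (limma adjusted p = 3.4e-06) and the next brightest (1.1e-05) were among the 3 calls. A further Sparc probe set was not (limma adjusted p = 0.99988), so the remaining call was not a Sparc probe set. Each member has 1 probe set, so averaging probe sets changed nothing. No paired analysis was possible because the KO and WT animals share no numbers. The members are far above background, and how far the top of the signal range limits them was not tested.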
